A study of Bos taurus with 6 samples.

Results

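The matrix metalloproteinases MMP1, MMP2, MMP3, MMP9 and MMP14 and the tissue inhibitors TIMP1, TIMP2 and TIMP3 were followed in bovine aortic endothelial cells exposed to TGF-beta 1. Members were all probe sets, the groups of short probes that report a transcript, whose array annotation gives 1 of these 8 gene symbols. The 8 genes, of 9155 named on the array, had 15 of the 24016 probe sets, 9 for the 5 proteases and 6 for the 3 inhibitors. The cells were a primary culture freed from bovine aorta with collagenase and grown in RPMI medium, and RNA was hybridised to an Affymetrix bovine array. Of the 6 arrays, 3 came from cultures given TGF-beta 1 at 5 ng/ml for 24 hours (TGFB1 1 to 3) and 3 from untreated cultures (basal 1 to 3). The labels speak of triplicates from separate cultures and name neither the animals nor any culture shared by equal numbers, so the p-values measure only the spread between these arrays. No strain, genotype or animal age is given.

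Matrix metalloproteinases are zinc-dependent enzymes that cut collagens, laminins and other matrix proteins and are made as inactive precursors. TIMPs bind the active site and block it, and TIMP2 also bridges the precursor of MMP2 to the membrane-anchored MMP14, a step in MMP2 activation. In the vessel wall the balance between these enzymes and inhibitors governs how the basement membrane under the endothelium is kept or dissolved, and in human fibroblasts TGF-beta is known for raising TIMP1 and lowering MMP1. An array measures the transcripts alone and says nothing of secretion or activation.

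Values are log2 expression, so a difference of 1 is a doubling. Probe sets bind with different strength, hence levels are compared between arrays for the same probe set and never between probe sets. The test was limma's moderated comparison with p-values adjusted over the whole table of 24016 probe sets (Benjamini-Hochberg, threshold 0.05), and none of the 15 members passed it. Over all probe sets 0.658% passed, 0.304% as higher and 0.354% as lower. At an unadjusted p under 0.05 there were 5 of the 15 members, against 13.7% of all probe sets. The 3 treated arrays lay wholly on one side of the 3 basal arrays in 5 members (2 proteases higher and 3 inhibitor probe sets lower), against 19.2% of all probe sets, 7.61% higher and 11.6% lower.

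Treatment was not the main difference between the arrays. Their first principal component, with 63.4% of the variance, put basal 1, basal 2 and TGFB1 1 on one side (scores from -67.8 to -10.3) and basal 3, TGFB1 2 and TGFB1 3 on the other (36.0 to 41.4). These are called the first and the second array set, a division read from the data that no label names. The first holds 2 basal arrays and 1 treated array, the second 1 basal and 2 treated. Treatment and array set are therefore partly confounded in this component and in the full comparison. The sets follow the sign of the score, which for TGFB1 1 was the weakest of the 6 arrays. That array correlated at 0.9771 and 0.9753 with TGFB1 2 and 3, and at 0.9745 and 0.9632 with basal 2 and 1. Its place in the first set is thus uncertain, and results that rest on the sets depend on it. Of all probe sets, 37.6% had array sets that did not overlap. Since the sets were drawn from these same values, that share cannot be compared with the share for treatment. The endothelial label was borne by the markers PECAM1, from 11.73 to 11.84 in treated arrays and from 12.08 to 12.43 in basal arrays, and CDH5, from 11.37 to 11.75 and from 11.76 to 12.34. VWF lay between 5.99 and 6.05 in treated and between 6.05 and 6.33 in basal arrays, and the KDR probe set between 4.39 and 4.51 and between 4.66 and 5.50, so not every marker was bright. Of the 8 endothelial markers, 5 were lower in every treated array, against 11.6% of all probe sets. None passed the test (limma, 4 at an unadjusted p under 0.05, against 13.7% of all probe sets). TIE1 at -0.70 log2, NOS3 at 0.11 and TEK at 0.02 had overlapping groups. The 8 markers averaged 9.15 to 9.31 log2 over the treated arrays and 9.30 to 9.79 over the basal arrays. In bulk RNA, fewer cells of a type and less RNA per cell cannot be told apart. Of 6 smooth muscle markers TAGLN alone passed, at 12.18, 12.33 and 11.92 in TGFB1 1 to 3 and at 9.90, 9.78 and 10.18 in basal 1 to 3 (2.19 log2, SE 0.16, limma adjusted p = 0.0273). That list, TAGLN included, averaged 7.09 to 7.22 over the treated arrays and 6.77 to 6.84 over the basal arrays. Its other markers had overlapping groups, with MYH11 at -0.10 log2, SMTN at -0.26, CNN1 at 0.09, ACTA2 at 0.20 and DES at -0.05. The 6 fibroblast markers averaged 4.89 to 5.01 in treated and 4.80 to 4.91 in basal arrays, and the 4 pericyte markers 5.20 to 5.46 and 5.12 to 5.54, with none called (limma, 1 and 0 at an unadjusted p under 0.05). The part of these markers in the values below was not tested.

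MMP9, the gelatinase that cuts denatured collagen and type IV collagen of basement membranes, had the largest difference among the members. Its probe set (Bt.4714.1.S1_at, Entrez gene 282871) stood at 8.17, 6.75 and 6.78 in TGFB1 1, 2 and 3, against 5.10, 5.23 and 5.06 in basal 1, 2 and 3. Every treated array lay above every basal array, and TGFB1 1 stood well above the other treated arrays while the basal arrays lay close together. The means were 7.23 ± 0.81 and 5.13 ± 0.09 log2 (SD, n = 3 each), a 4.30-fold higher level with a 95% interval of 2.20 to 8.39. Its limma adjusted p was 0.0937 (unadjusted p = 0.0018), outside the threshold. A larger positive difference was seen in 41 of the 24016 probe sets, of which 21 passed. The SD of MMP9 among treated arrays exceeded that of 98% of probe sets.

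The call for MMP9 depended on the arrays and the model used. Without TGFB1 1 the difference was 1.63 log2 and passed (limma adjusted p = 0.0428), where 0.05% of all probe sets passed, 0.0416% as higher. That fit leaves treated arrays of the second array set only, while basal 1 and 2 belong to the first. Treatment and array set are thus more confounded than with all arrays, here and wherever TGFB1 1 is left out below. With the array sets as a block the difference of MMP9 was 2.35 and passed (adjusted p = 0.0135), in a model added once the data had been seen, where 5.61% of all probe sets passed, 2.73% as higher and 2.88% as lower. Its adjusted p lay between 0.0135 and 0.322 across the alternatives. Within the first array set TGFB1 1 exceeded the mean of basal 1 and 2 by 3.01 log2, and within the second set the mean of TGFB1 2 and 3 exceeded basal 3 by 1.70. The basal level of MMP9 lay below the array medians (5.88 to 5.92), and since the values carry no detection call it was not shown to be above background.

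White blood cells are another source of MMP9. Of the 6 leukocyte markers listed, 5 were measured, and their mean lay between 4.58 and 4.74 log2 over the treated arrays and between 4.56 and 4.71 over the basal arrays. PTPRC, the common leukocyte antigen, lay between 3.77 and 3.93 in treated arrays and between 3.87 and 3.93 in basal arrays, under the 25th percentile of every array (4.52 to 4.60). ITGAM and CD3E lay under that percentile too, with treated means of 3.58 and 4.12 and basal means of 3.68 and 4.10. CD68 lay between 4.58 and 4.87 in treated and between 4.58 and 4.92 in basal arrays. CD14 was brighter, at 6.54, 7.46 and 7.31 in TGFB1 1 to 3 and from 6.68 to 6.80 in basal arrays, with TGFB1 1 the lowest and TGFB1 2 and 3 the highest of the 6. None of the 5 passed the test (limma, 0 at an unadjusted p under 0.05), and the part of such cells in the MMP9 values was not tested.

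**Figure D1:**
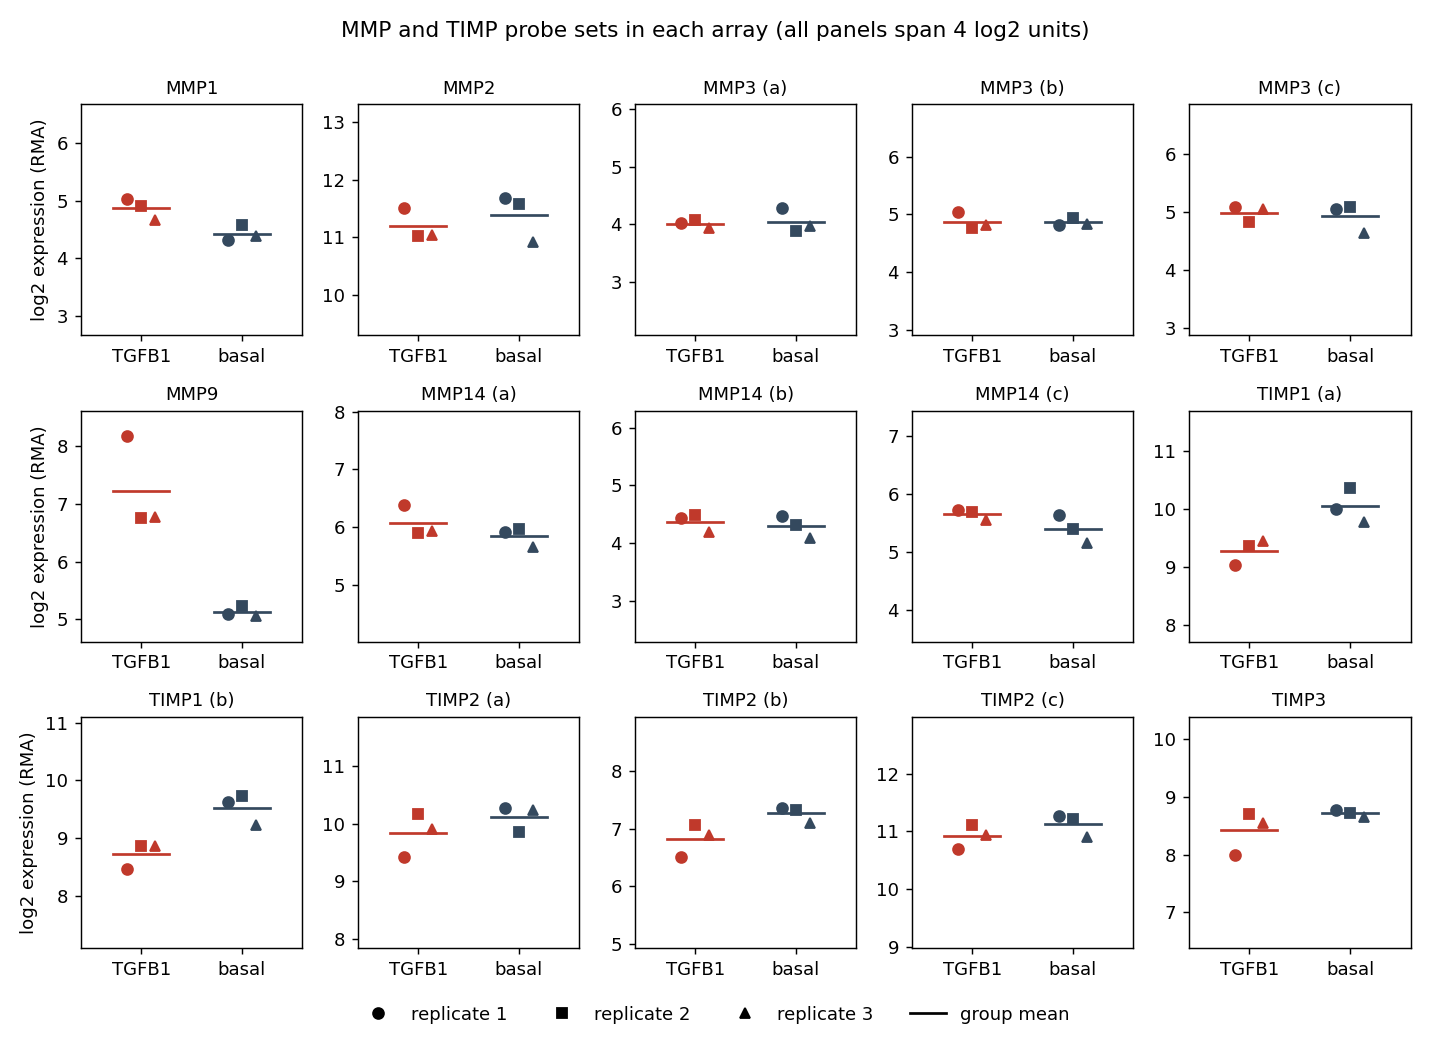
Log2 expression of each of the 15 probe sets in the 3 TGFB1 and 3 basal arrays, with marker shape for the replicate number, a line at the group mean and every vertical axis spanning 4 log2 units; letters after a gene mark its several probe sets in the order in which the text gives them. MMP9 shows the widest gap, with treated arrays from 6.75 to 8.17 and basal arrays from 5.06 to 5.23, while both TIMP1 probe sets lie lower in all treated arrays.

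MMP1, the interstitial collagenase that opens fibrillar collagen, was the other protease whose groups did not overlap. Its probe set (Bt.72.1.S1_at) stood at 5.02, 4.91 and 4.67 in TGFB1 1 to 3 and at 4.31, 4.58 and 4.39 in basal 1 to 3. All treated arrays were higher, by a narrow margin between TGFB1 3 and basal 2. The means of 4.87 ± 0.18 and 4.43 ± 0.14 (SD, n = 3 each) differed 1.36-fold (95% interval 1.09 to 1.70, limma adjusted p = 0.219). The basal mean lay below the 25th percentile of the arrays, where background compresses differences. The difference was 0.57 log2 within the first array set and 0.41 within the second, and its adjusted p stayed above the threshold in all alternatives (0.0853 to 0.568).

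MMP3, stromelysin 1, cuts proteoglycans and laminin and can activate the precursors of MMP1 and MMP9. In the RefSeq gene order of assembly ARS-UCD2.0 it is the protein-coding neighbour of MMP1. Its 3 probe sets were dim and the groups overlapped in each. The first (Bt.18504.1.S1_at) lay at 4.02, 4.08 and 3.94 in TGFB1 1 to 3 and at 4.28, 3.88 and 3.98 in basal 1 to 3. The second (Bt.18504.2.A1_at) lay at 5.05, 4.76 and 4.82 in TGFB1 1 to 3 and at 4.81, 4.93 and 4.84 in basal 1 to 3. Basal 1 was the highest array in the first, and without it the difference was 0.08 log2. TGFB1 1 was the highest in the second, and without it the difference was -0.07 log2. The third (Bt.18504.2.S1_a_at) lay at 5.08, 4.83 and 5.06 in TGFB1 1 to 3 and at 5.06, 5.09 and 4.64 in basal 1 to 3. In the same order the log2 differences were -0.03, 0.02 and 0.06, with 95% intervals of -0.35 to 0.28, -0.25 to 0.28 and -0.31 to 0.44 (limma adjusted p = 0.942, 0.969 and 0.904). At this brightness the intervals limit what the probe sets could report, and no MMP3 transcript was shown to be present.

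MMP2, the gelatinase that endothelial cells make without stimulation, was bright in every array. Its probe set (Bt.5313.1.S1_at) stood at 11.51, 11.02 and 11.05 in TGFB1 1 to 3 and at 11.69, 11.58 and 10.92 in basal 1 to 3. The groups overlapped, and the values followed the array sets instead: the first set lay from 11.51 to 11.69 and the second from 10.92 to 11.05. MMP2 was the only member whose array sets did not overlap, against 37.6% of all probe sets, from whose values the sets were drawn. The treated mean of 11.19 ± 0.28 and the basal mean of 11.39 ± 0.42 (SD, n = 3 each) differed by -0.20 log2 (95% interval -0.81 to 0.40, limma adjusted p = 0.788). With the array sets as a block the difference was 0.00 (SE 0.10, adjusted p = 0.994), and within the sets it was -0.12 in the first and 0.12 in the second.

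MMP14, the membrane-anchored collagenase that activates MMP2, had 3 probe sets. The brightest (Bt.7046.1.S1_at) lay at 6.38, 5.89 and 5.93 in TGFB1 1 to 3 and at 5.91, 5.96 and 5.65 in basal 1 to 3, with TGFB1 1 the highest array. A second (Bt.7046.2.A1_at) lay at 4.43, 4.49 and 4.19 in TGFB1 1 to 3 and at 4.47, 4.31 and 4.09 in basal 1 to 3. The groups overlapped in both. The third (Bt.7046.2.S1_a_at) lay at 5.73, 5.69 and 5.55 in TGFB1 1 to 3 and at 5.64, 5.40 and 5.16 in basal 1 to 3, where only basal 1 reached into the treated range. The differences were 0.23 log2 (95% interval -0.18 to 0.64), 0.08 (-0.26 to 0.42) and 0.26 (-0.09 to 0.61), with limma adjusted p = 0.633, 0.858 and 0.516. All were positive with the 6 arrays and none passed in any alternative. Basal 3 was the lowest of the 6 arrays in each of the MMP14 probe sets, and with the array sets as a block the first stood at 0.36 (adjusted p = 0.0837).

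TIMP1, the secreted inhibitor of most soluble metalloproteinases including MMP9, was lower in every treated array by both of its probe sets. The first (Bt.632.1.S1_at) stood at 9.04, 9.36 and 9.45 in TGFB1 1 to 3 and at 10.01, 10.37 and 9.78 in basal 1 to 3. The second (Bt.632.1.S1_s_at) stood at 8.46, 8.86 and 8.86 in TGFB1 1 to 3 and at 9.62, 9.73 and 9.23 in basal 1 to 3. In both, TGFB1 1 was the lowest array and basal 3 the lowest of the basal arrays. The means of the first were 9.28 ± 0.21 and 10.05 ± 0.30 (SD, n = 3 each), a treated level 1.71-fold lower (95% interval 1.24 to 2.35, limma adjusted p = 0.152). Those of the second were 8.73 ± 0.23 and 9.53 ± 0.26, 1.74-fold lower (1.28 to 2.37, adjusted p = 0.131). These probe sets share a transcript accession and count as 1 gene.

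Leaving out basal 3 brought both TIMP1 probe sets past the threshold, at -0.91 and -0.95 log2 (limma adjusted p = 0.0438 and 0.0307). In that fit 8.38% of all probe sets passed, 5.36% as lower. It leaves 2 basal arrays, both of the first array set, while 2 of the 3 treated arrays belong to the second. Treatment and array set are thus more confounded in it than with all arrays. With the array sets as a block the differences were -0.77 and -0.79 and did not pass (adjusted p = 0.0881 and 0.074). Across the alternatives the first probe set had an adjusted p between 0.0438 and 0.402 and the second between 0.0307 and 0.40. Within the first array set TGFB1 1 lay below the mean of basal 1 and 2 by -1.15 and -1.21 log2, and within the second the mean of TGFB1 2 and 3 lay below basal 3 by -0.38 and -0.37.

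TIMP2, the inhibitor that takes part in MMP2 activation, was measured by 3 probe sets. The first (Bt.14176.1.S1_at) lay at 9.42, 10.17 and 9.91 in TGFB1 1 to 3 and at 10.27, 9.85 and 10.23 in basal 1 to 3. The second (Bt.14176.2.S1_at) lay at 6.50, 7.07 and 6.89 in TGFB1 1 to 3 and at 7.36, 7.33 and 7.10 in basal 1 to 3. In the second the groups were apart, by a gap between TGFB1 2 and basal 3 that was small beside the spread. The third (Bt.435.1.S1_at) lay at 10.70, 11.11 and 10.94 in TGFB1 1 to 3 and at 11.26, 11.22 and 10.91 in basal 1 to 3. Differences were -0.28 log2 (95% interval -0.83 to 0.27), -0.44 (-0.86 to -0.03) and -0.22 (-0.59 to 0.16), with limma adjusted p = 0.663, 0.331 and 0.625. TGFB1 1 was the lowest array in all 3. Without it the differences were -0.07, -0.28 and -0.11 log2, and in the third probe set the mean of TGFB1 2 and 3 stood 0.12 log2 above basal 3.

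TIMP3, the inhibitor that stays bound to the matrix and also blocks several ADAM proteases, had 1 probe set (Bt.5136.1.S1_at). It stood at 7.99, 8.71 and 8.55 in TGFB1 1 to 3 and at 8.77, 8.72 and 8.65 in basal 1 to 3. Only TGFB1 1 was clearly low, and the groups overlapped between TGFB1 2 and basal 3. The means of 8.41 ± 0.38 and 8.71 ± 0.06 (SD, n = 3 each) differed by -0.30 log2 (95% interval -0.77 to 0.18, limma adjusted p = 0.587). Without TGFB1 1 the difference was -0.09, and within the second array set it was -0.03.

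**Figure D2:**
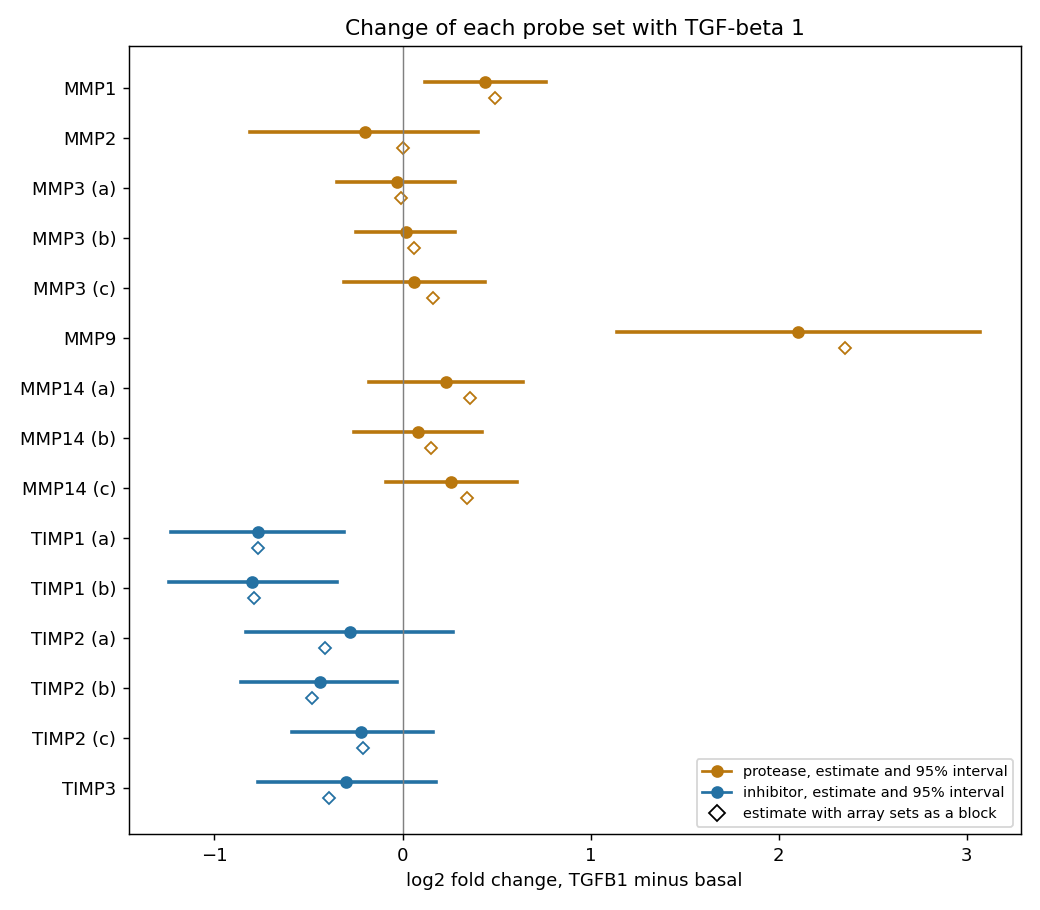
Log2 fold change of each probe set, TGFB1 minus basal, with its 95% interval from limma (proteases above, inhibitors below) and, as open diamonds, the estimate with the array sets as a block. All 6 inhibitor probe sets lie left of 0, between -0.80 and -0.22, while the 9 protease probe sets lie between -0.20 and 2.10 with MMP9 far to the right.

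As groups, 7 of 9 protease probe sets had a positive difference and 2 a negative one, with a median of 0.08 log2, and all 6 inhibitor probe sets had a negative one, with a median of -0.37. Over all 24016 probe sets 11324 were positive and 12692 negative, with a median of -0.013. The 6 inhibitor probe sets stand for 3 genes and are not independent of each other, and no test was made over either group. Without TGFB1 1 the inhibitor median was -0.20 and the protease median 0.05.

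The array TGFB1 1 was the lowest of the 6 in 6 of 6 inhibitor probe sets, against 12.4% of all probe sets. It was the highest in 5 of 9 protease probe sets, those of MMP1 and MMP9, the second of MMP3 and 2 of MMP14, against 21.7% of all probe sets. Treated cultures 2 and 3 shared with it the higher MMP9 and lower TIMP1, but for TIMP2 and TIMP3 they lay within or near the basal range.

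**Figure D3:**
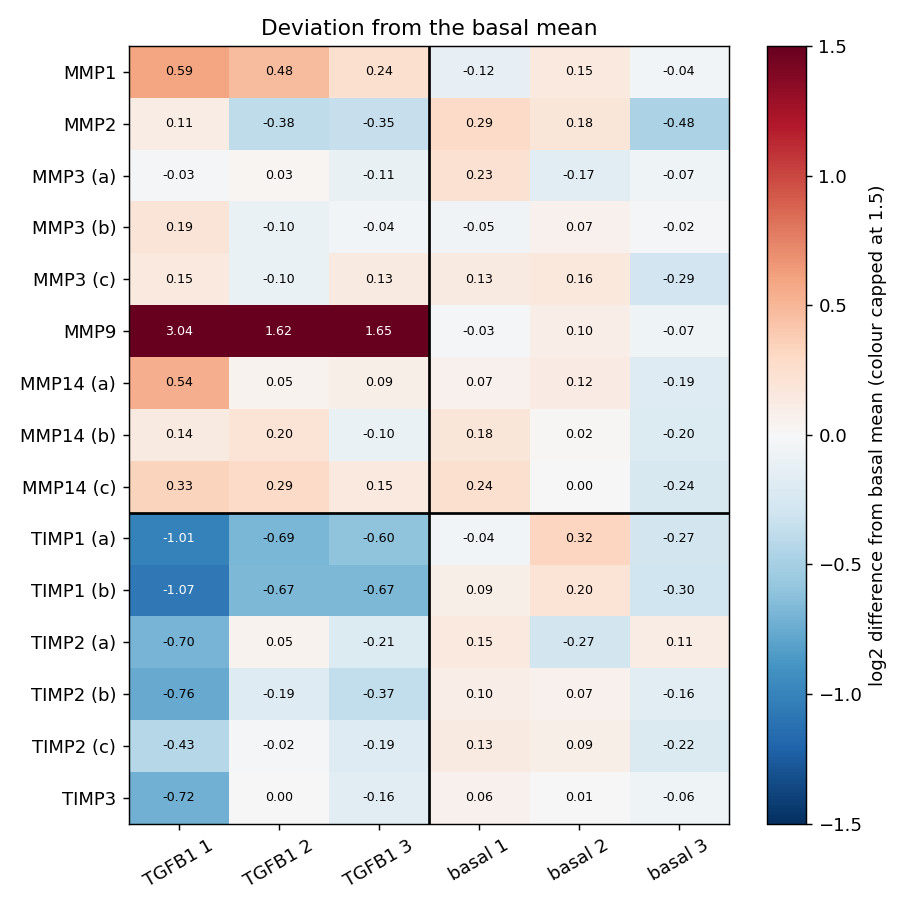
Difference of each array from the mean of the basal arrays for the 15 probe sets, in log2 units, with colour capped at 1.5 and the value printed in each cell; TGFB1 arrays are left of the vertical line and proteases above the horizontal one. TGFB1 1 is the lowest array in each of the 6 inhibitor probe sets, and the values of MMP2 follow the array sets in place of the treatment.

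Proteases were then set against the inhibitor that binds them within each array. Only the change of such a difference between groups can be read, since its level depends on the probes. For 4 pairs the within-array log2 difference was compared between groups with a two-sided exact permutation test over 20 assignments, whose smallest possible p is 0.1, so no pair could pass 0.05.

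The difference of MMP9 minus TIMP1, set to a basal mean of 0, was 4.06, 2.31 and 2.26 in TGFB1 1 to 3 and 0.01, -0.22 and 0.20 in basal 1 to 3. It was 2.88 log2 higher in treated arrays, a 7.34-fold shift of the ratio (SD 1.02 in treated and 0.21 in basal arrays, exact p = 0.1, adjusted over the pairs 0.133). Without TGFB1 1 the shift was 2.28 log2, or 4.87-fold. Every treated array exceeded every basal array by over 2 log2 units. MMP1 minus TIMP1 was 1.61, 1.18 and 0.86 in TGFB1 1 to 3 and -0.07, -0.16 and 0.23 in basal 1 to 3, higher by 1.21 log2 (2.32-fold, exact p = 0.1, adjusted 0.133). Here too the groups were apart. MMP9 and MMP1 were each higher and TIMP1 lower in every treated array, so both separations and their exact p followed from these genes. They are no further evidence. Both pairs use the same TIMP1 values and are not independent.

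MMP14 minus TIMP2 was 0.98, 0.07 and 0.29 in TGFB1 1 to 3 and -0.07, 0.03 and 0.03 in basal 1 to 3. The shift of 0.45 log2 (1.36-fold, exact p = 0.1, adjusted 0.133) rested mostly on TGFB1 1 and was 0.18 without it. MMP2 minus TIMP2 was 0.55, -0.35 and -0.15 in TGFB1 1 to 3 and 0.16, 0.09 and -0.25 in basal 1 to 3, a shift of 0.01 (exact p = 1, adjusted 1). The groups of that pair overlapped fully, and the shift was -0.25 without TGFB1 1 and -0.11 without basal 3.

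**Figure D4:**
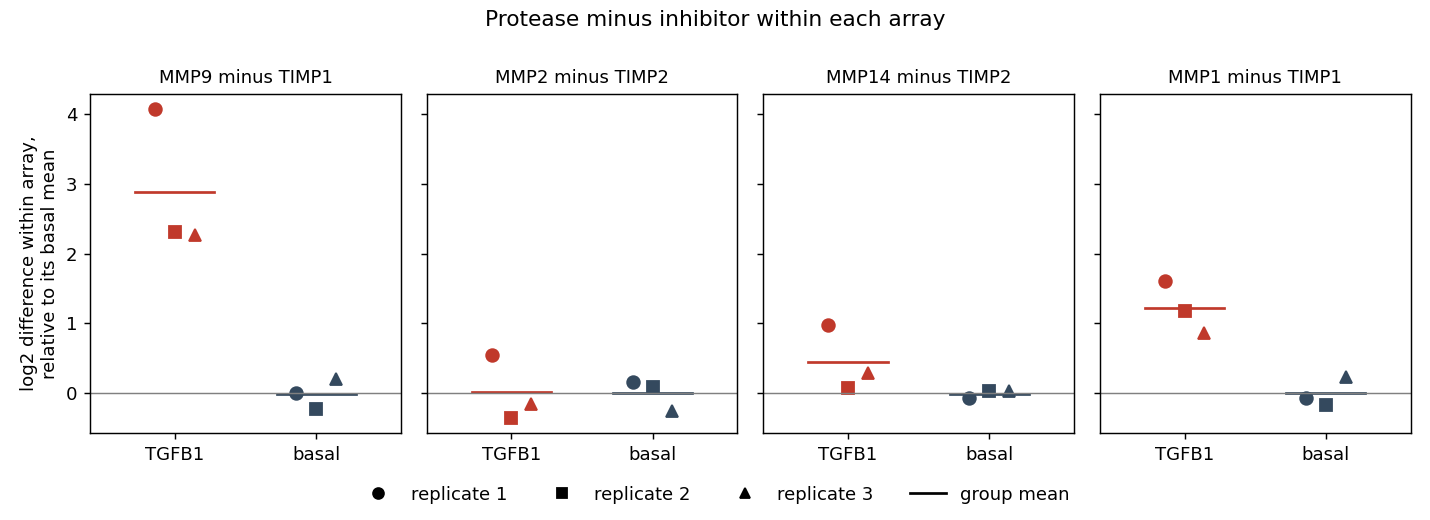
Log2 difference of a protease and an inhibitor within each array, relative to its mean in basal arrays, for 4 pairs; points are arrays with marker shape for the replicate number and lines are group means. MMP9 minus TIMP1 lies between 2.26 and 4.06 in TGFB1 arrays and between -0.22 and 0.20 in basal arrays, whereas MMP2 minus TIMP2 overlaps.

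Other genes of the system were taken from 5 lists with 76 names, of which 39 were measured, each read from its brightest probe set. None passed (limma, 9 at an unadjusted p under 0.05, against 13.7% of all probe sets). The groups were apart in 12 of the 39, against 19.2% of all probe sets, dim ones included. Among the 39, 7 were higher and 5 lower, against 7.61% and 11.6% of all probe sets. Leaving out basal 3 gave 5 calls, those of TIMP4, ADAM15, ADAMTS1, THBS1 and HSPG2, where 8.38% of all probe sets passed and treatment was partly confounded with array set. The array sets as a block, with 5.61% of all probe sets, gave 4 others, COL4A1, LAMA4, COL1A2 and VCAN.

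Among 5 further metalloproteinases and TIMP4, 6 genes in all, the differences had a median of 0.04 log2 and 3 of the genes were under the 25th percentile of mean expression. TIMP4, the remaining member of the inhibitor family, stood at 5.36, 5.60 and 5.52 in TGFB1 1 to 3 and at 6.29, 6.20 and 5.62 in basal 1 to 3. It was lower in every treated array, though basal 3 nearly met them, by -0.55 log2 (SE 0.20, limma adjusted p = 0.30). Its 2 other probe sets had the same sign. The enamel protease MMP20, the membrane type MMP16 and the collagenase MMP13 stood at 0.19, -0.25 and 0.04 with adjusted p of 0.493, 0.60 and 0.90. Neither the 2 other probe sets of MMP16 nor the 1 other of MMP13 had the same sign as the one given.

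ADAM proteases cut proteins from the cell surface, and TIMP3 blocks several of them. Of 9 listed 5 were measured and 2 were lower in every treated array, against 11.6% of all probe sets. ADAM15, which endothelial cells carry at their junctions, stood at 5.67, 5.73 and 5.40 in TGFB1 1 to 3 and at 6.39, 6.65 and 5.94 in basal 1 to 3, a difference of -0.72 log2 (SE 0.21, limma adjusted p = 0.199). ADAM12 stood at -0.34 (adjusted p = 0.30), ADAM9 at 0.82 (0.391) and ADAM19 at -0.30. Of 20 ADAMTS names 6 were measured, and none had groups apart. ADAMTS1, which cuts the proteoglycan versican, lay at 7.86, 7.28 and 7.85 in TGFB1 1 to 3 and at 10.08, 9.80 and 7.68 in basal 1 to 3. Basal 3 thus lay among the treated arrays, and the difference of -1.52 log2 had an SE of 0.64 (adjusted p = 0.384). Without basal 3 it was -2.28 (adjusted p = 0.0112). ADAMTS5, ADAMTS4 and ADAMTS2 stood at -0.20, 0.39 and 0.11.

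Of 14 partners and regulators 9 were measured. CD44, a hyaluronan receptor that can hold MMP9 at the cell surface, stood at 9.32, 9.14 and 9.18 in TGFB1 1 to 3 and at 8.83, 8.46 and 8.64 in basal 1 to 3, a difference of 0.57 log2 (SE 0.12, limma adjusted p = 0.121). THBS1, a matrix protein that activates latent TGF-beta, stood at 13.37, 13.35 and 13.40 in TGFB1 1 to 3 and at 12.76, 12.77 and 13.08 in basal 1 to 3 (0.50, SE 0.11, adjusted p = 0.128). Both were higher in every treated array. CAV1, the coat protein of caveolae, stood at -0.71 (SE 0.31) and THBS2, which helps to clear MMP2, at -0.19 (SE 0.10).

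Among 13 measured substrates and matrix proteins, COL4A1 of the basement membrane stood at 12.16, 12.15 and 12.09 in TGFB1 1 to 3 and at 11.75, 11.68 and 11.55 in basal 1 to 3 (0.47 log2, SE 0.09, limma adjusted p = 0.0972). LAMA4, a laminin chain of endothelial basement membranes, stood at 12.04, 11.82 and 11.80 in TGFB1 1 to 3 and at 11.50, 11.46 and 11.33 in basal 1 to 3 (0.46, SE 0.11, adjusted p = 0.134). Both were higher in each treated array. The proteoglycan VCAN was lower in each, at 6.72, 7.87 and 8.33 in TGFB1 1 to 3 and at 9.48, 9.04 and 9.44 in basal 1 to 3 (-1.68, SE 0.41, adjusted p = 0.154). The fibrillar collagen chain COL1A2 stood at 0.93 (SE 0.33) with overlapping groups.

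Among 9154 other named genes, those with values most like MMP9 over the 6 arrays were the interleukin 1 receptor IL1R1 (Pearson r = 0.999), the mitochondrial folate enzyme MTHFD1L (0.997) and the branched-chain aminotransferase BCAT1 (0.996). Their own differences were 1.37, 0.72 and 1.67 log2, and none passed (limma adjusted p = 0.0776, 0.111 and 0.109). Most like the second TIMP1 probe set were LOC615809 (r = 0.995), the deacylase SIRT7 (0.995) and the small heat shock protein HSPB6 (0.994), at -0.70, -0.40 and -0.60. With 6 arrays r rests on few values: of 9154 genes compared, 93 had r over 0.95 with MMP9 and 170 with TIMP1. How many came near the values above was not counted.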

How the data were processed

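The authors deposited log2 expression for 6 arrays. The submitters' processing notes name RMA and affy without a version. RMA removes background, equalises the arrays by quantiles and summarises each probe set, so differences near background are compressed and no detection call is kept. The table held 24128 probe sets. Leaving out 112 AFFX controls left 24016, of which 13292 carry 1 gene symbol, 86 several and 10638 none. No probe set with several symbols named a member, and all 8 members matched the RefSeq gene table by identifier. That table gave names and gene order only, since no build is named for the array. No sequence is shown for the members.

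The comparison used limma 3.58.1 under R 4.3.3, with lmFit and eBayes on a model of group alone (4 residual and 1.97 prior degrees of freedom). Two-sided p-values were adjusted over the 24016 probe sets (Benjamini-Hochberg). No dim probe sets were removed. The code was run on simulated arrays with independent noise in each probe set. These lacked the shared difference between the real arrays, so that run does not show how the fit behaves under it. Context genes were represented by the probe set with the highest mean. The members and lists were chosen with earlier results of these data known. Named genes were all members, from each context list those past the threshold and the 4 with the smallest p, and the 3 genes most like the leading protease and inhibitor. HSPG2 and the markers were named besides. Alternatives covered normalization, the variance prior, a replicate block, filters, 1 probe set per gene and leaving out each array. The array sets as a block were added after seeing the data. Plots were made in Python 3.11.15 with matplotlib 3.10.9. The number of arrays limits the precision.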

Additional observations from a re-analysis of the deposited data

How the results depend on the processing

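Over all probe sets 158 passed as reported. The count was 100 after a further quantile normalization (57 higher and 43 lower, against 73 and 85), 87 with limma-trend, 0 with the replicate block (limma, 4450 at an unadjusted p under 0.05) and 1348 with the block of array sets. It lay between 1 and 2012 when an array was left out, the highest without basal 3. The listed other genes had 0 calls as reported, 4 with the block of array sets and 0 to 5 when an array was left out. Of 210 member values under alternatives, 200 kept the sign of the unrounded estimate and their side of the threshold, 4 passed where the reported fit did not (MMP9 and TIMP1, as given above) and 6 changed sign, all of dim MMP3 or MMP14 probe sets. With an array left out the MMP3 probe sets ran from -0.12 to 0.08, from -0.07 to 0.07 and from -0.08 to 0.14 log2, and the second MMP14 probe set from -0.02 to 0.17. MMP2 minus TIMP2 ran from -0.25 to 0.20. Why these moved was not tested. Whether equal replicate numbers pair the arrays was not settled. Deviations from the group means correlated at 0.672 and 0.687 for numbers 1 and 3 and at -0.455 for number 2. When matched only to arrays of the other group, 4 of 6 arrays were most like their own number. With the replicate block no member passed, and the exact p of the pairs MMP9 and TIMP1, MMP14 and TIMP2, and MMP1 and TIMP1 was 0.25, the smallest that 3 pairs allow. Members near or below the array medians (MMP1, MMP3, MMP14 and basal MMP9) lack a detection call, which limits their folds.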
